A study of Mus musculus with 16 samples.

Results

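The acute-phase proteins studied here are the products of 10 genes, Saa1, Saa2, Saa3, Saa4, Orm1, Orm2, Lbp, Hp, Itih4 and Steap4. The genes were taken by symbol from the gene tables of 16 mouse livers, and all 10 were found among 17410 genes and passed the filter on low counts in every comparison. Saa1 to Saa4 encode serum amyloid A proteins, which travel on high-density lipoprotein. Orm1 and Orm2 encode orosomucoid, or alpha-1-acid glycoprotein, a carrier of small molecules in plasma. Lbp encodes lipopolysaccharide-binding protein, which hands bacterial lipopolysaccharide to CD14. Hp encodes haptoglobin, which captures free haemoglobin. Itih4 encodes a heavy chain of the inter-alpha-trypsin inhibitor family, and Steap4 encodes a metalloreductase of the cell membrane that inflammatory cytokines induce. Steap4 differs from the others in that its product stays in the cell and is not secreted into plasma.

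In the acute-phase response, cytokines such as interleukin-6, interleukin-1 and tumour necrosis factor act on hepatocytes. STAT3, C/EBP and NF-kB then raise the transcription of positive acute-phase genes, while genes of negative acute-phase proteins such as albumin and transthyretin fall. Serum amyloid A is the most strongly inducible of these proteins in the mouse, and Saa3 is also made by macrophages and adipocytes.

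The study measured liver RNA in 2 experiments on ChREBPα, which is one form of the sugar-sensing transcription factor that Mlxipl encodes, with 4 livers in each of 4 groups. In the deletion experiment both groups carried floxed Chrebpα alleles and ate a NASH diet for 12 weeks, which drew 40% of its calories from fat and 20% from fructose and held 2% cholesterol. WT_NASH mice (livers 17 to 20) had been given AAV-TBG-GFP and LKO_NASH mice (livers 21 to 24) AAV-TBG-Cre, an adeno-associated virus whose TBG promoter is active in hepatocytes. In the overexpression experiment wildtype mice started a choline-free HFLMCD diet at 2 months of age. That diet drew 45% of its calories from fat, held 0.1% added methionine and lasted 3 weeks. Adenovirus for GFP (Ad_GFP_HFLMCD, livers 9 to 12) or for Chrebpα (Ad_Chrebpa_HFLMCD, livers 13 to 16) was given 1 week before dissection. Wildtype mice of the overexpression experiment kept their own Chrebpα, and no group was fed chow throughout. The labels number the livers without saying that each came from a separate animal, so each p-value rests on the spread among these samples, and that spread could be technical.

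The libraries held 21254937 to 40327264 expected counts. Summed FPKM of 15 hepatocyte markers, albumin among them, was 50853 to 73424 per liver and each was listed in every group, so hepatocyte RNA was abundant in every group. These are bulk livers, in which fewer cells of a type and less RNA per cell cannot be told apart, and the 10 transcripts are not assigned to hepatocytes by these data. Mlxipl, the targeted gene, stood at 66.1 ± 15.1 FPKM in WT_NASH and 76.4 ± 22.3 in LKO_NASH (SD, n = 4; edgeR adjusted p = 0.916). It stood at 43.7 ± 4.61 FPKM in Ad_GFP_HFLMCD and 46.1 ± 1.41 in Ad_Chrebpa_HFLMCD (SD, n = 4; edgeR adjusted p = 0.241). The gene total therefore bore out neither label, and it checks them weakly, because the sources used here do not name the deleted exon and RNA from the vector may not be counted as Mlxipl. Groups are called as labelled throughout, and every direction below is between livers so labelled.

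Liver 21 stood apart from the other livers labelled LKO_NASH in some genes of the acute-phase pathway, which were picked for this check after their values were seen. Stat3 read 48.3 FPKM in liver 21 against 20.9 to 22.1 in livers 22 to 24, and 37.9 to 47.3 in the 4 WT_NASH livers. Socs3, its feedback inhibitor, read 7.07 FPKM in liver 21 against 1.66 to 2.02 in livers 22 to 24, and 4.47 to 7.86 in WT_NASH. Il1r1, the interleukin-1 receptor, read 49.0 FPKM in liver 21 against 10.3 to 14.1 in livers 22 to 24. Its range in WT_NASH was 20.66 to 56.15 FPKM. Cebpb did not single out liver 21, at 149.7 FPKM against 149.7 to 171 in livers 22 to 24 and 84.3 to 111 in WT_NASH. Nor did Nfkb1, at 5.71 FPKM against 5.47 to 6.59 in livers 22 to 24, or Il1b, at 2.04 FPKM against 0.81 to 2.24. Liver 17 stood apart in WT_NASH for the 10 genes themselves, as given below. Deletion differences of the 10 genes are therefore given with and without these livers, while the gene lists are given over all 8 livers only. Since these livers were picked for their high readings, p-values without them are descriptions.

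Saa1 and Saa2 can share reads, since their coding sequences are 95.1% identical over 369 bases, with 18 bases that differ and a longest identical run of 73 bases. The stretch from base 40 to base 189 of each coding sequence holds 12 of those differences, printed in capitals to show how few positions let a short read tell the genes apart.
Saa1: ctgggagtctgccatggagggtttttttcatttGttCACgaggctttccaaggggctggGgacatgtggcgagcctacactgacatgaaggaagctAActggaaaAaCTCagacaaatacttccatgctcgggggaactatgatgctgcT
Saa2: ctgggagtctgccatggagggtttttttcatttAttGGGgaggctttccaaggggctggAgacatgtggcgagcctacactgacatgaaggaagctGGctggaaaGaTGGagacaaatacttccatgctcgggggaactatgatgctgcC
Values of Saa1 and Saa2 are therefore uncertain one by one, and their sum is given as well. RefSeq also lists Saa2 among the other names of Saa1 and Saa1 among those of Saa2. Saa3 and Saa4 are more distant, at 76.1% and 65.2% identity with Saa1. In gene order Saa3, Saa4, Saa1 and Saa2 lie side by side. Orm1 and Orm2 are 89.9% identical over 624 bases, with 63 differing bases and a longest identical run of 104. Their bases 139 to 288 hold 29 differences, shown the same way.
Orm1: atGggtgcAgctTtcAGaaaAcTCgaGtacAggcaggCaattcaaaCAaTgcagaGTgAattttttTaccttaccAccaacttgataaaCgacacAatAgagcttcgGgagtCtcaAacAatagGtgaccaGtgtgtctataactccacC
Orm2: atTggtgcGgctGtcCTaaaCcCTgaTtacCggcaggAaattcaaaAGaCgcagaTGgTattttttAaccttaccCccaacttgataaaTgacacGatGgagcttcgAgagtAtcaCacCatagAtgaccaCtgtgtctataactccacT
Coding sequences were those of GENCODE M21, positions are counted from the first base of the start codon, and the sources used here do not name the build of the deposited tables.

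Saa1 and Saa2 varied widely among the NASH livers. FPKM, a count of fragments scaled to transcript length and library size, is a level that allows genes to be compared. For livers 17 to 20 of WT_NASH, Saa1 read 1749.9, 535, 415 and 148 FPKM. For livers 21 to 24 of LKO_NASH it read 475, 74.4, 79.5 and 144 FPKM. Liver 17 was the highest of the 8 and liver 20 was as low as liver 24, so the groups overlapped.

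Saa2 followed Saa1, with 1154, 176, 167 and 46.5 FPKM in WT_NASH and 217, 37.4, 50.4 and 74.3 FPKM in LKO_NASH. Liver 17 lay far above the rest, and the groups overlapped. The log2 fold change of LKO_NASH against WT_NASH was -2.05 for Saa1 (standard error 0.85, edgeR adjusted p = 0.358) and -2.20 for Saa2 (standard error 0.97, edgeR adjusted p = 0.367). Neither passed an adjusted p of 0.05. Without liver 17 the values were -1.07 and -0.60, and without liver 21 they were -3.06 for both genes (edgeR adjusted p = 0.0609 and 0.098). Summed over both genes, the FPKM were 2904, 711, 582 and 194 in WT_NASH and 692, 112, 129.9 and 218 in LKO_NASH.

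In the overexpression experiment the same 2 genes were higher in every Ad_Chrebpa_HFLMCD liver than in any Ad_GFP_HFLMCD liver, in a comparison that called 4.95% of all genes tested higher. Saa1 read 151, 125, 128 and 157 FPKM in livers 9 to 12 and 243, 257, 411 and 216 FPKM in livers 13 to 16. It rose 2.10-fold (log2 1.07, 95% interval 0.67 to 1.48, edgeR adjusted p = 0.00973). Liver 15 was the highest of the group, and the groups did not overlap.

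Saa2 read 78.0, 56.6, 56.3 and 71.4 FPKM with Ad_GFP and 116, 121, 213 and 109 FPKM with Ad_Chrebpa. It rose 2.23-fold (log2 1.16, 95% interval 0.69 to 1.63, edgeR adjusted p = 0.0129). Again liver 15 led and no liver of one group reached the other. The ratio of Saa1 to Saa2 FPKM was 1.94 to 2.27 with Ad_GFP and 1.93 to 2.11 with Ad_Chrebpa. On the NASH diet the ratio was wider, 1.52 to 3.18 in WT_NASH and 1.58 to 2.19 in LKO_NASH.

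**Figure D1:**
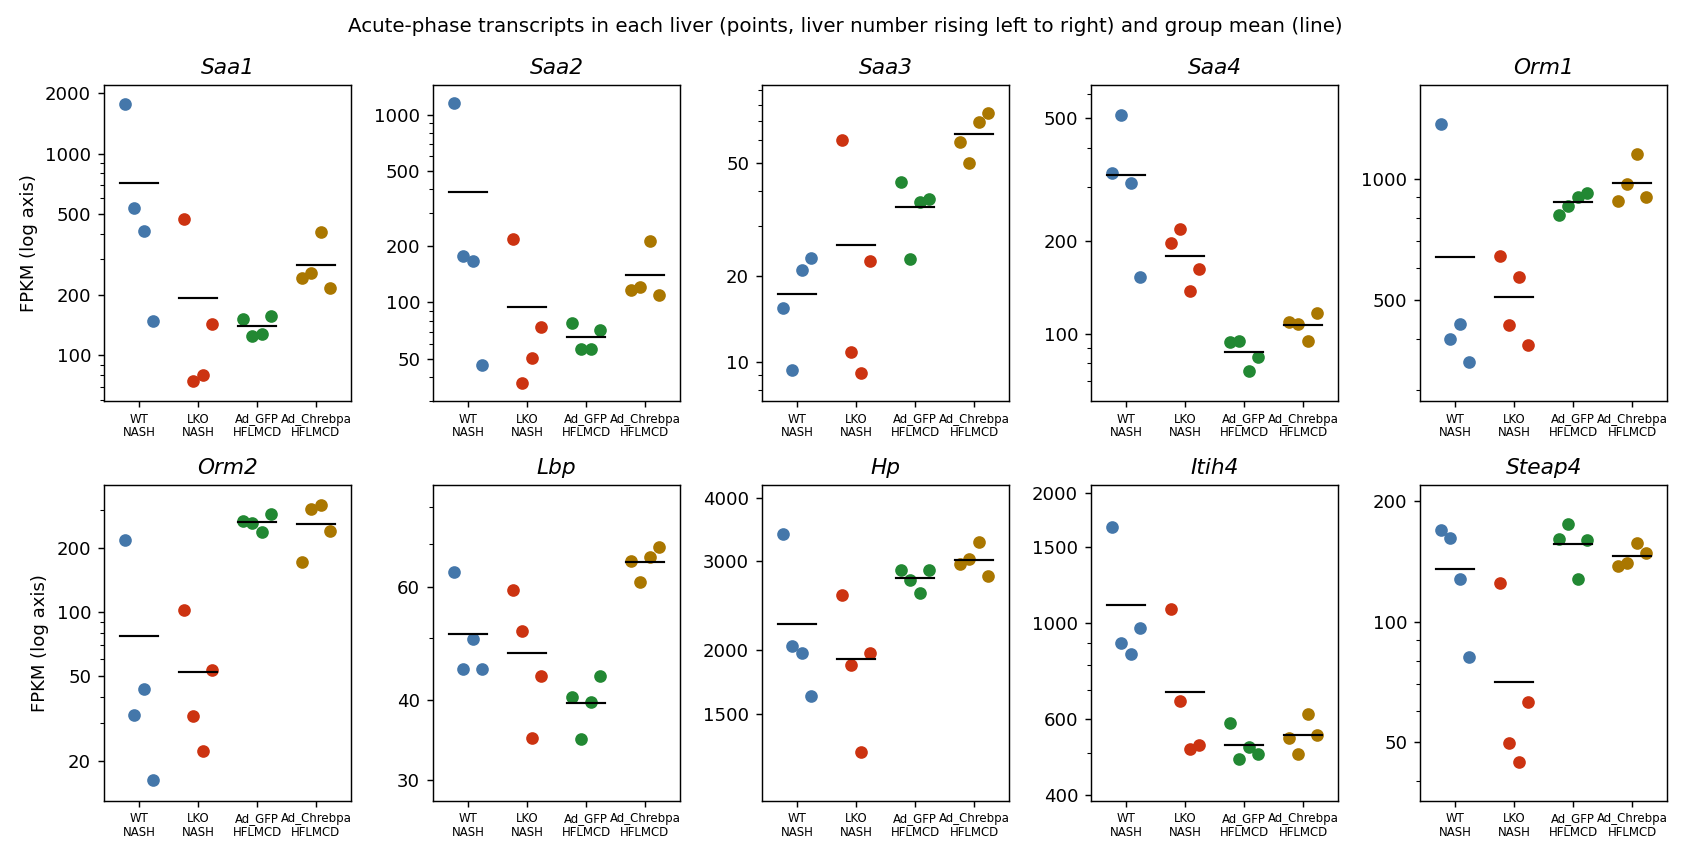
FPKM of each of the 10 transcripts (log axis) in the 4 livers of each group, with points in order of liver number and a line at the group mean. Saa1 of liver 17 reaches 1749.9 FPKM against 148 to 535 in the other WT_NASH livers, while the 4 Ad_Chrebpa_HFLMCD livers sit at 216 to 411, above all 4 Ad_GFP_HFLMCD livers at 125 to 157.

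Saa3 had the lowest mean FPKM of the 10 genes in every group and another order of groups than Saa1 and Saa2. Its FPKM were 15.4, 9.41, 21.0 and 23.2 in WT_NASH and 60.3, 10.9, 9.13 and 22.7 in LKO_NASH. Liver 21 was far above the other 7 livers, which overlapped, and the difference between the groups was log2 0.45 (standard error 0.57, edgeR adjusted p = 0.698). Without liver 17 it was 0.41, and without liver 21 it was -0.46, with the opposite sign. On the HFLMCD diet Saa3 read 42.9, 22.9, 36.6 and 37.5 FPKM with Ad_GFP and 59.2, 50.1, 69.4 and 75.2 FPKM with Ad_Chrebpa. All livers with Ad_Chrebpa were above all livers with Ad_GFP, and Saa3 rose 1.90-fold (log2 0.92, 95% interval 0.49 to 1.36, edgeR adjusted p = 0.0219). That call was lost without liver 11, 12, 15 or 16 in turn (edgeR adjusted p = 0.0505 to 0.0661).

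Because macrophages and adipocytes also make Saa3, their markers are given beside it. Summed FPKM of 20 macrophage and Kupffer cell markers was 149 to 265 in the WT_NASH livers and 208 to 433 in the LKO_NASH livers, against 1491 to 2340 with Ad_GFP and 1212 to 1787 with Ad_Chrebpa, with every marker listed in each group. In the overexpression comparison 9 of the 20 were positive, 1 was called higher and none lower, and their median was -0.05. Liver 21, which led in Saa3, also had the highest macrophage sum of the NASH livers, 433 FPKM, although liver 24 had 414 with less Saa3. Summed FPKM of 6 adipocyte markers was 21.6 to 85.3 in WT_NASH, 67.9 to 162 in LKO_NASH, 26.0 to 36.2 with Ad_GFP and 21.9 to 30.9 with Ad_Chrebpa, where Retn was not listed. Nearly all of these adipocyte sums came from Cfd, Fabp4 and Cidea. Adipoq, Plin1 and Retn reached at most 0.05, 0.05 and 0.08 FPKM in any liver. The part of macrophages and adipocytes in the Saa3 values was not tested.

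Saa4, the constitutively made serum amyloid A of plasma, had a lower coefficient of variation than Saa1 and Saa2 in every group. It read 333, 513, 308 and 152 FPKM in WT_NASH and 196, 218, 138 and 162 FPKM in LKO_NASH. Here liver 18, not liver 17, was the highest of WT_NASH, and liver 20 fell among the LKO_NASH livers. The difference was log2 -1.04 (standard error 0.34, edgeR adjusted p = 0.343) and did not pass the test. Without liver 17 it was -1.03 and without liver 21 it was -1.11. With Ad_GFP it read 94.0, 94.4, 75.6 and 83.8 FPKM and with Ad_Chrebpa 109, 107, 94.3 and 117 FPKM. Liver 15, the highest for Saa1 and Saa2, was the lowest of its group for Saa4, just under liver 10, so the groups overlapped. Saa4 rose 1.29-fold (log2 0.37, 95% interval 0.18 to 0.57, edgeR adjusted p = 0.0328). This call was lost without liver 11, 12, 13 or 16 and on log2(FPKM + 1) (limma adjusted p = 0.0542).

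The orosomucoid pair had higher FPKM on the HFLMCD diet than in most NASH livers. Orm1 read 1365, 400.4, 436 and 352 FPKM in WT_NASH, 643, 433, 569.6 and 388 in LKO_NASH, 814, 857, 901 and 920.1 with Ad_GFP, and 878, 969, 1154 and 902 with Ad_Chrebpa. Liver 17 alone stood above every other liver, while the other 7 NASH livers were below all 8 HFLMCD livers. Orm2 read 216, 32.98, 43.5 and 16.3 FPKM in WT_NASH, 102, 32.4, 22.3 and 53.7 in LKO_NASH, 267, 262, 237 and 287 with Ad_GFP, and 171, 302, 316 and 240.2 with Ad_Chrebpa. Again 7 NASH livers were below all HFLMCD livers, and liver 17 fell among them. This order belongs to the FPKM scale: edgeR gave -0.20 for Orm1 and 1.11 for Orm2 in Ad_GFP_HFLMCD against WT_NASH and called neither (edgeR adjusted p = 0.699 and 0.174), while limma on log2(FPKM + 1) gave 0.70 and 2.43 and called Orm2 (limma adjusted p = 0.00485).

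Neither orosomucoid gene passed a test within an experiment. For LKO_NASH against WT_NASH the log2 fold changes were -0.49 for Orm1 (standard error 0.45, edgeR adjusted p = 0.596) and -0.73 for Orm2 (standard error 0.79, edgeR adjusted p = 0.647). Without liver 17 both turned positive, at 0.23 and 0.62, and without liver 21 they were -0.64 and -1.32. For Ad_Chrebpa_HFLMCD against Ad_GFP_HFLMCD they were 0.23 for Orm1 (95% interval 0.04 to 0.42, edgeR adjusted p = 0.120) and 0.04 for Orm2 (95% interval -0.31 to 0.38, edgeR adjusted p = 0.908). The interval of Orm2 leaves room for a change of either sign, and on log2(FPKM + 1) its difference was -0.07.

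The ratio of Orm1 to Orm2 FPKM was 3.05 to 3.80 with Ad_GFP and 3.21 to 5.13 with Ad_Chrebpa. On the NASH diet it was 6.31 to 21.6 in WT_NASH and 6.33 to 25.5 in LKO_NASH. All 8 NASH livers thus had a higher ratio than all 8 HFLMCD livers, and within each NASH group the ratio was lowest in the liver with the most Orm2, liver 17 and liver 21. Reads shared by the pair could be split between them by the counting, whose program the sources used here do not name.

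**Figure D2:**
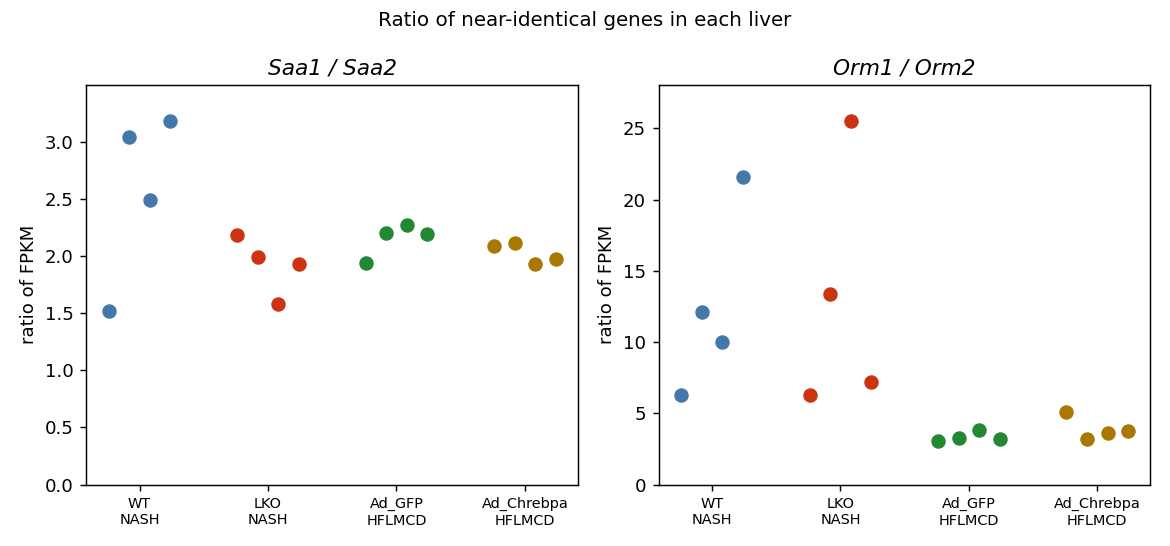
Ratio of FPKM of the near-identical genes, Saa1 over Saa2 and Orm1 over Orm2, in each liver, with both axes starting at 0. The Orm1 to Orm2 ratio is 3.05 to 5.13 in the 8 HFLMCD livers and 6.31 to 25.5 in the 8 NASH livers, while the Saa1 to Saa2 ratio stays between 1.52 and 3.18 in all 16.

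Lbp was the steadiest call. It read 40.4, 34.8, 39.6 and 43.5 FPKM with Ad_GFP and 65.7, 61.0, 66.9 and 69.3 FPKM with Ad_Chrebpa. The lowest Ad_Chrebpa liver was well above the highest Ad_GFP liver. Lbp rose 1.74-fold (log2 0.80, 95% interval 0.61 to 0.99, edgeR adjusted p = 0.00129) and ranked 26 of 13658 genes by p. It was called whichever liver was left out (log2 0.73 to 0.86) and also with all 16 livers in 1 fit (edgeR adjusted p = 0.0153). In the NASH livers Lbp read 63.4, 44.7, 49.7 and 44.7 FPKM in WT_NASH and 59.3, 51.2, 34.9 and 43.5 FPKM in LKO_NASH. These overlapped almost fully, with a difference of log2 -0.25 (95% interval -0.69 to 0.19, edgeR adjusted p = 0.534). Without liver 17 it was -0.11 and without liver 21 it was -0.41.

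Hp, the most abundant of the 10 by FPKM, was not called in either experiment. It read 3406, 2038, 1975 and 1623 FPKM in WT_NASH and 2577, 1875, 1260.4 and 1975 FPKM in LKO_NASH. It read 2883, 2755, 2596 and 2881 FPKM with Ad_GFP and 2963, 3036, 3273 and 2806 FPKM with Ad_Chrebpa. Liver 17 was the highest of all 16 and the groups of each experiment overlapped. The log2 differences were -0.40 (standard error 0.30, edgeR adjusted p = 0.524) and 0.19 (standard error 0.07, edgeR adjusted p = 0.131), and DESeq2 called the second (adjusted p = 0.0363). The deletion difference was -0.11 without liver 17 and -0.60 without liver 21.

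Itih4 lies beside Itih3 in gene order and was highest in liver 17. It read 1671, 899.8, 848 and 974 FPKM in WT_NASH and 1074, 659, 509.6 and 522 FPKM in LKO_NASH. Only liver 21 of the LKO_NASH livers reached the WT_NASH range. The difference was log2 -0.82 (standard error 0.33, edgeR adjusted p = 0.358). Without liver 17 it was -0.52 (edgeR adjusted p = 0.659), without liver 21 it was -1.14 (edgeR adjusted p = 0.0589) and without both it was -0.83 (edgeR adjusted p = 0.0747). It passed only without livers 19 and 21 among the exclusions run, at -1.25 (edgeR adjusted p = 0.0362), a pair taken from earlier results of these data although liver 19 does not stand apart for the 10 genes. With Ad_GFP it read 585, 484, 514 and 496 FPKM and with Ad_Chrebpa 541, 498, 614 and 550.5 FPKM, which overlapped (log2 0.15, edgeR adjusted p = 0.326).

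Steap4 showed the same arrangement as Itih4 on the NASH diet. It read 169, 162, 128 and 81.8 FPKM in WT_NASH and 125, 49.9, 44.7 and 63.0 FPKM in LKO_NASH. Liver 21 fell inside the WT_NASH range and livers 22 to 24 below it. The difference over all 8 livers was log2 -1.09 (95% interval -1.94 to -0.25, edgeR adjusted p = 0.343). Without liver 17 it was -0.96 (edgeR adjusted p = 0.648). Without liver 21 it was -1.56 (edgeR adjusted p = 0.0337), whereas without livers 17 and 21 it was -1.41 (edgeR adjusted p = 0.0652). Liver 21 was the highest LKO_NASH liver for Steap4, so leaving it out makes the difference larger, and that p-value is a description. With Ad_GFP Steap4 read 161, 176, 128 and 160.2 FPKM and with Ad_Chrebpa 138, 139.7, 157 and 148 FPKM. These overlapped, and the difference was log2 -0.03 (95% interval -0.21 to 0.16, edgeR adjusted p = 0.870).

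Over the deletion comparison as a whole, 0 of the 10 genes were called in either direction, and 0% of 12786 genes were called by edgeR (0% higher and 0% lower, lowest adjusted p = 0.242). At an unadjusted p under 0.05 there were 985 genes higher and 752 lower, 5 of the 10 among the lower. DESeq2 called 1.24% of genes and none of the 10. Differences were negative for 9 of the 10, Saa3 excepted, with a median of -0.77 beside 0.01 over all genes tested. On log2(FPKM + 1) the medians were -0.45 and 0.11. Without liver 17 only 7 of the 10 were negative and their median was -0.31. Without liver 21 all 10 were negative with a median of -1.13, and 1 was called, with the share of all genes not given here. On FPKM all 10 genes overlapped between the groups.

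In the overexpression comparison 5 of the 10 were called, all higher, and 8.13% of 13658 genes were called (4.95% higher and 3.18% lower). The 5 were Saa1, Saa2, Saa3, Saa4 and Lbp, and 4 of them, Saa4 excepted, did not overlap between groups on FPKM. On counts scaled by TMM, 7 of the 10 did not overlap, all higher. The share of all genes without overlap is not given here for either scale. The median of the 10 was 0.30 beside -0.01 over all genes tested. On log2(FPKM + 1) limma called 428 genes higher and 984 lower, where edgeR called 676 higher and 434 lower, and it called Saa1, Saa2, Saa3 and Lbp. With all 16 livers in 1 fit only Lbp was called (edgeR adjusted p = 0.323 to 0.529 for the 4 serum amyloid A genes). The biological coefficient of variation, the spread that edgeR estimates, was 0.126 in the HFLMCD livers, 0.221 in the NASH livers and 0.179 over all 16.

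**Figure D3:**
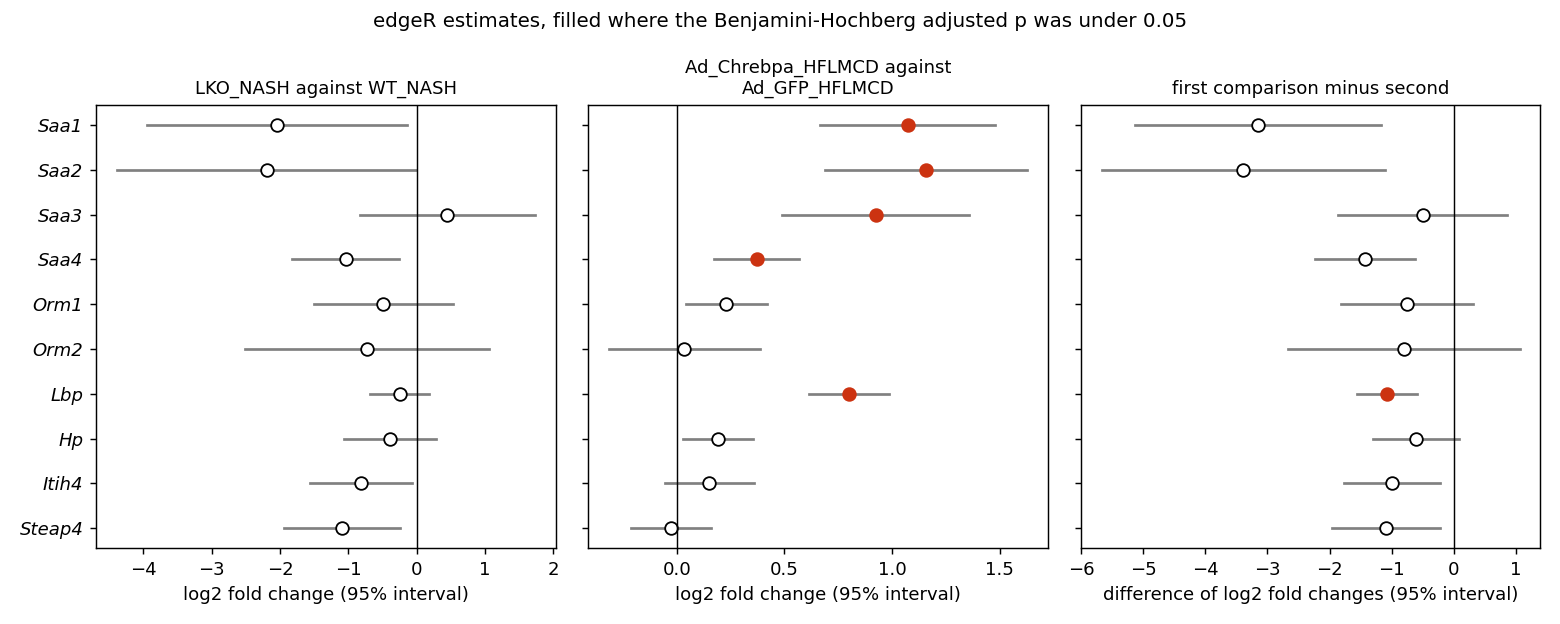
Log2 fold changes from edgeR with 95% intervals for the 10 genes in both comparisons, and the difference between the comparisons, each on its own horizontal axis. Filled points have an adjusted p under 0.05: Saa1, Saa2, Saa3, Saa4 and Lbp in the middle panel, Lbp in the right panel and none in the left panel.

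Whether a gene differed between the experiments was tested as the LKO_NASH against WT_NASH difference minus the Ad_Chrebpa_HFLMCD against Ad_GFP_HFLMCD difference. The experiments also differ in diet, its length, virus and genotype, which cannot be told apart. All 10 estimates were negative, with a median of -1.04 beside 0.00 over all genes. Lbp alone was called (log2 -1.08, 95% interval -1.56 to -0.59, edgeR adjusted p = 0.0242), in a test that called 2.6% of 13830 genes (0.976% higher and 1.62% lower). Saa4 (-1.43, edgeR adjusted p = 0.0543), Saa1 (-3.15, edgeR adjusted p = 0.079) and Saa2 (-3.39, edgeR adjusted p = 0.0945) did not pass. The Lbp call was lost without liver 10, 13, 16 or 24 in turn (edgeR adjusted p = 0.0557 to 0.0759). Without liver 21, 7 of the 10 were called lower, all but Orm1, Orm2 and Hp. The 2.6% belongs to the fit on all 16 livers, and the share of genes called without liver 21 is not given here.

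**Figure D4:**
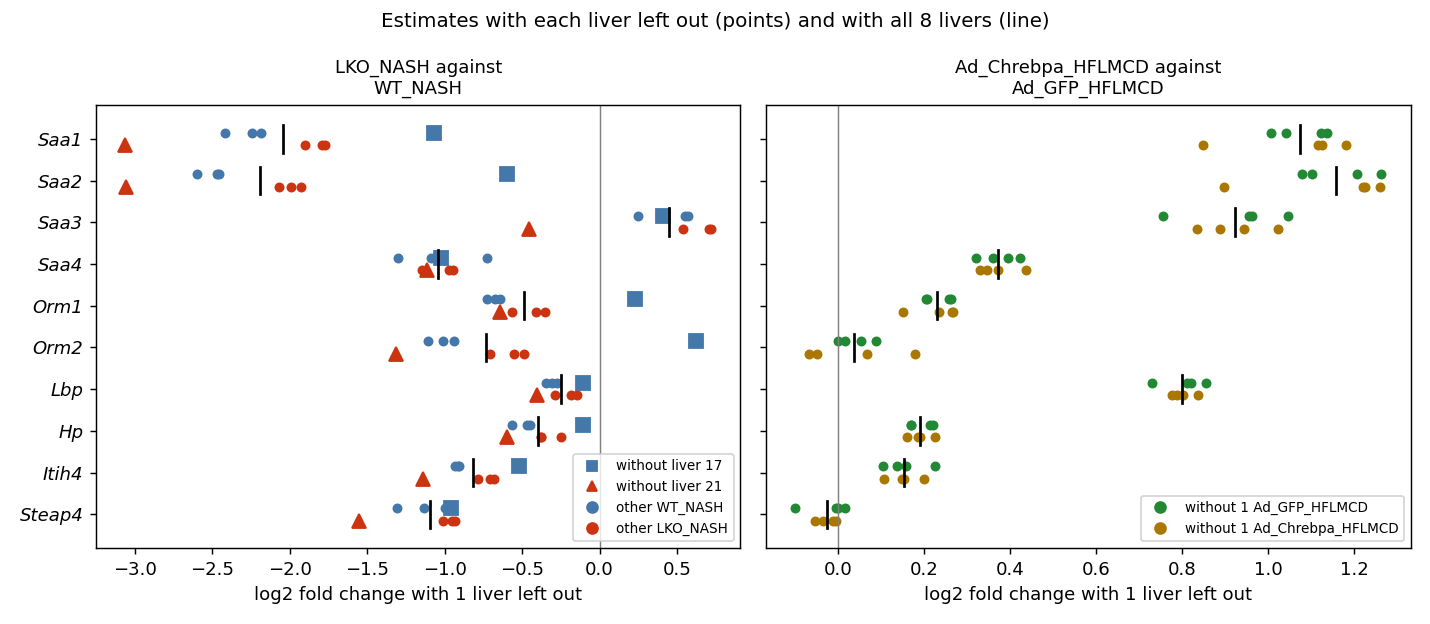
Log2 fold changes with 1 liver left out, as points in the colour of the group it came from, beside the value with all 8 livers, as a line, with a separate horizontal axis for each comparison. Leaving out liver 17 (squares) takes Orm1 and Orm2 above 0 and leaving out liver 21 (triangles) takes Saa3 below 0, while Lbp stays between 0.73 and 0.86 in the overexpression comparison.

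The spread within groups was wider in the NASH groups than in the HFLMCD groups, which also differ in diet length, virus and genotype. The median coefficient of variation of the 10 genes was 40.6% in WT_NASH and 45.2% in LKO_NASH, against 9.79% in Ad_GFP_HFLMCD and 10.7% in Ad_Chrebpa_HFLMCD. Saa2 reached 134% in WT_NASH, where its highest liver was 24.8 times its lowest. The 10 genes together took 0.64% to 1.42% of counts in WT_NASH, 0.437% to 0.887% in LKO_NASH, 0.679% to 0.753% with Ad_GFP and 0.752% to 0.874% with Ad_Chrebpa.

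The same livers were high or low for most of the 10. Liver 17 was the highest of WT_NASH for 8 of 10 genes, liver 20 the lowest for 8, liver 21 the highest of LKO_NASH for 9 and liver 23 the lowest for 7. On log2 CPM, a count scaled to library size alone, centred on each group, the mean over the 10 genes was 1.07 in liver 17 and -0.85 in liver 20. It was 0.95 in liver 21 and -0.49 in liver 23, and between -0.14 and 0.20 in the 8 HFLMCD livers. Depth was 27600570 counts in liver 17, 33361940 in liver 20, 28660264 in liver 21 and 21569511 in liver 23, the second shallowest of the 16. Summed hepatocyte markers were 62133 FPKM in liver 17, the lowest of WT_NASH, against 69864 to 73424 in livers 18 to 20. They were 62811 FPKM in liver 21 against 58868 to 69876 in livers 22 to 24. The part of either measure in the pattern was not tested.

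**Figure D5:**
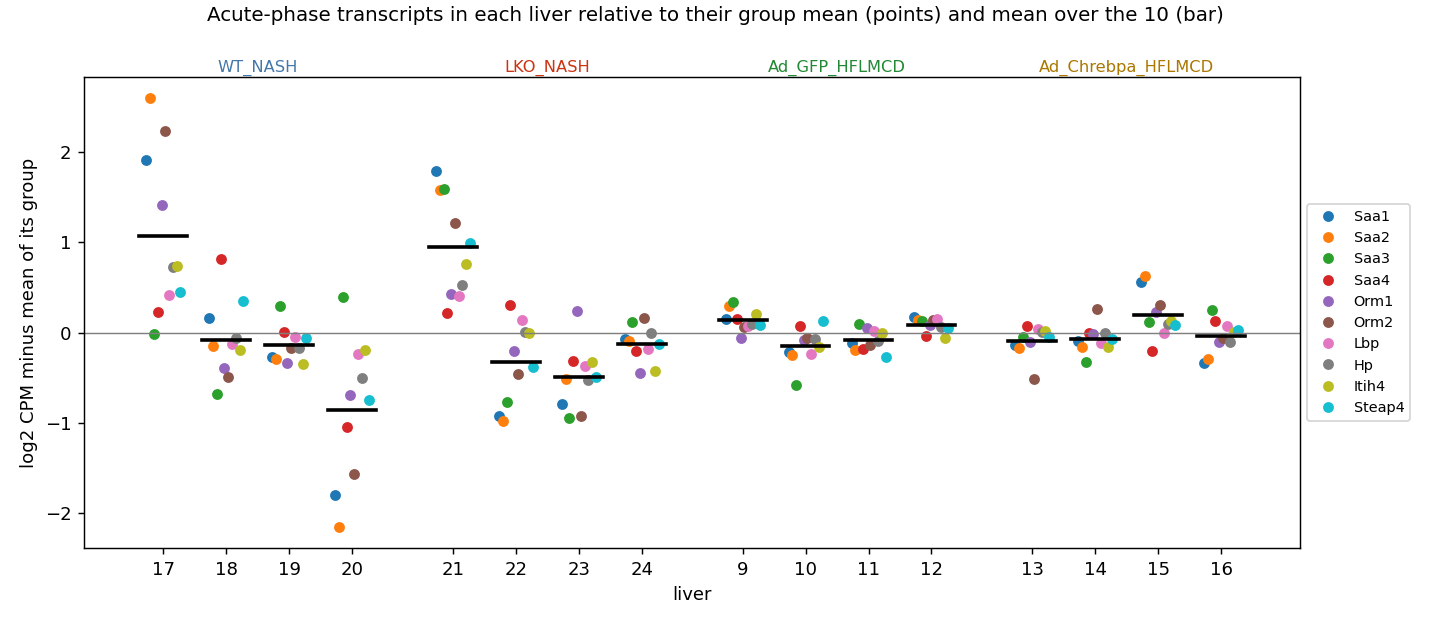
Log2 CPM of each of the 10 genes minus the mean of its group, in the 16 livers, with a bar at the mean over the 10 genes. The bar is at 1.07 in liver 17, -0.85 in liver 20 and 0.95 in liver 21, and between -0.14 and 0.20 in the HFLMCD livers.

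Each gene was compared with the mean of the other 9 over the 16 livers after this centring. For Saa1, Saa2, Orm1 and Orm2 that mean still held the near-identical partner, with which reads can be shared. The livers share their group and library, so Pearson's r is given as a description. It was 0.97 for Saa1, 0.95 for Saa2, 0.95 for Hp, 0.93 for Orm2, 0.86 for Steap4, 0.84 for Itih4, 0.82 for Lbp and 0.77 for Orm1. Saa4 and Saa3 followed the rest least, at 0.43 and 0.38. Without liver 17, r was 0.62 for Orm1 and between 0.43 and 0.96 for the others. Over the 8 HFLMCD livers alone Saa4 had -0.34 and Orm2 0.41, while Saa2 kept 0.90.

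Of 10911 other genes, the 8 most like the mean of the 10 were C4b (r = 0.97), Ddx28 (0.96), Lcn2 (0.95), Hpx (0.94), Lrg1 (0.93), Ddx5 (0.93), Itih3 (0.93) and Snrnp70 (0.91), over 16 livers. C4b encodes complement C4, Lcn2 the siderophore-binding lipocalin-2, Hpx the haem carrier hemopexin and Lrg1 a leucine-rich plasma glycoprotein. Those 4 and Itih3 stood on the list of other positive acute-phase proteins, while Ddx28 and Ddx5 encode RNA helicases and Snrnp70 a spliceosome protein. Lcn2 was 349 FPKM in liver 17 against 28.2 to 49.6 in livers 18 to 20, and 125 in liver 21 against 20.5 to 62.3 in livers 22 to 24. Over the 8 HFLMCD livers alone r was 0.19 for Lcn2, 0.22 for Itih3 and 0.48 for Lrg1, against 0.87 for Hpx.

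The bases upstream of the genes were searched for motifs of acute-phase transcription factors. RefSeq promoters (GRCm38.p6) were matched for 7 of the 10, the others being Orm1, Lbp and Hp, and the 250 bases before the start were read on both strands. C/EBP, spelled TTGCNNAA, matched in 6 of the 7, all but Itih4, beside 9.56% of 32851 promoters in the table. STAT, spelled TTCNNNGAA, matched in Steap4 and Itih4 beside 7.02%, and the interleukin-6 response element CTGGGAA in Steap4 beside 9.1%. NF-kB, as GGG, any 3 bases and TTCC, matched in Steap4 beside 4.65%, and the HNF1 motif matched in none of the 7 beside 0.371%. A match is a description of letters in this window, and none of these data measured binding.

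The upstream bases of Saa1 and Saa2 are 94.8% identical and their C/EBP match is at the same place, 182 to 175 and 183 to 176 bases before the start. The upstream bases of Saa3 are 48.5% identical to those of Saa1, beside 46.3% for Saa4 with Saa1. The C/EBP match of Saa3 lies 99 to 92 bases before the start. Steap4, which was not called there, holds 4 of the 5 motifs. The upstream bases of Saa1, Saa2, Saa3 and Steap4 are shown 5′ to 3′ on the strand of the gene, with matches in capitals.
Saa1, chr7:46742981-46743230, minus strand: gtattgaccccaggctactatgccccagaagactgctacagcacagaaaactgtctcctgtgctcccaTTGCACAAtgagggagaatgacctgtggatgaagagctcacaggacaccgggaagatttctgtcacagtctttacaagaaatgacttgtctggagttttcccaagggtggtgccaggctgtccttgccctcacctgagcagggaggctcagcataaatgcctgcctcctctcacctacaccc
Saa2, chr7:46751583-46751832, plus strand: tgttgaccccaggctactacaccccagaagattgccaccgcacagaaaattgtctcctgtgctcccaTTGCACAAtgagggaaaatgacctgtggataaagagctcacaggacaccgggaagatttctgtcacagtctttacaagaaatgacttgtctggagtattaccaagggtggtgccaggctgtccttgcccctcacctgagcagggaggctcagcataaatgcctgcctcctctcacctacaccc
Saa3, chr7:46715677-46715926, minus strand: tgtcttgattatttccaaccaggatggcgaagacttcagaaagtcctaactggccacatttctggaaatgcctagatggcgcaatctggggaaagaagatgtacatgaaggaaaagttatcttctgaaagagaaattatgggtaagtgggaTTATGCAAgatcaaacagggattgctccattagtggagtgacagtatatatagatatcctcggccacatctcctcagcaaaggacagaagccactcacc
Steap4, chr5:7960222-7960471, plus strand: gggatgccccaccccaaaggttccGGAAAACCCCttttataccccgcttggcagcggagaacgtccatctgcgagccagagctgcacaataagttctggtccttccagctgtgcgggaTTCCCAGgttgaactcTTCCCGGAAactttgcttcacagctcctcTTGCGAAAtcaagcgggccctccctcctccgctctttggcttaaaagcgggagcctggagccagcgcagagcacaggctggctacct

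Levels were compared between the control groups of the experiments, which serve in both comparisons above and differ in diet, diet length, virus and genotype. In Ad_GFP_HFLMCD against WT_NASH, 5 of the 10 were called lower and none higher, in a test that called 59.1% of 13488 genes (30.9% higher and 28.2% lower). These were Saa1 (-3.004), Saa2 (-3.22), Saa4 (-2.56), Lbp (-0.98) and Itih4 (-1.71). A share of 5 in 10 is near the 59.1% called either way. All 5 were lower, beside 28.2% of all genes called lower. Saa1 and Saa2 among them can share reads, so this direction is given as a description. The scale mattered: the median over all genes was 0.01 with edgeR and 0.48 on log2(FPKM + 1), where limma called 8049 genes higher and 658 lower instead of 4166 and 3805. On that scale 6 of the 10 were called, with Saa3 (1.01) and Orm2 (2.43) higher and Saa1, Saa4, Lbp and Itih4 lower, and Orm1, Hp and Steap4 changed sign without passing.

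By mean FPKM, WT_NASH came first for Saa1, Saa2, Saa4 and Itih4, Ad_Chrebpa_HFLMCD first for Saa3, Orm1, Lbp and Hp, and Ad_GFP_HFLMCD first for Orm2 and Steap4. LKO_NASH was last for Orm1, Orm2, Hp and Steap4. Neighbours in these orders overlapped in their livers, except Ad_Chrebpa_HFLMCD above Ad_GFP_HFLMCD for Saa3 and LKO_NASH above Ad_Chrebpa_HFLMCD for Saa4.

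Other genes of the acute-phase response were counted in fixed lists. Of 30 other positive acute-phase proteins, 4 were called in the overexpression comparison, all higher, and 28 were positive, with a median of 0.21. Those called were Itih3 and the 3 fibrinogen chains, which form the clot protein. Fgb went from 1403 ± 106 to 1814 ± 35.4 FPKM (SD, n = 4), a log2 rise of 0.44 (edgeR adjusted p = 0.0109). Fga rose by 0.47 and Fgg by 0.44 (edgeR adjusted p = 0.018 and 0.0184). None of the 3 overlapped between groups on FPKM, where the share of all genes without overlap is not given.

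In the deletion comparison none of these 30 was called, 25 were negative and the median was -0.61. The lowest p values were those of Il1rn, the interleukin-1 receptor antagonist (log2 0.95), Serpina1a, an alpha-1-antitrypsin (-0.58), and Itih3 (-1.07), with edgeR adjusted p = 0.305, 0.305 and 0.314. Summed over the 30, liver 21 had 38794 FPKM against 20199 to 20896 in livers 22 to 24, and liver 17 had 46819 against 30427 to 33586 in livers 18 to 20. Both livers thus stood high here too.

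Of 16 genes of negative acute-phase proteins, 3 were called in the overexpression comparison, all higher as were the positive ones: Igf1, the growth factor (0.43), Hrg, histidine-rich glycoprotein (0.43), and Apoa1, the main protein of high-density lipoprotein (0.33), with edgeR adjusted p = 0.00308, 0.0137 and 0.0423. The median of the 16 was 0.19 there and -0.20 in the deletion comparison, where 12 were negative and none was called. Itih1 had the lowest p, at log2 -0.48 (edgeR adjusted p = 0.305).

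Inducing cytokines summed to 11.0 to 44.0 FPKM per liver over the 11 found. Il6 was not listed in any of the 4 WT_NASH tables and reached at most 0.13 FPKM in any liver. Of 12 cytokines 9 were tested in the overexpression comparison and 1 was called: Lif, a STAT3-activating cytokine, which fell by 1.34 on the log2 scale (0.49 to 0.18 FPKM, edgeR adjusted p = 0.0171). In the deletion comparison 6 were tested and none called, with Il1a at log2 0.64 (edgeR adjusted p = 0.353).

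Of 12 cytokine receptors 3 were called in the overexpression comparison, all higher. They were Il22ra1, a chain of the interleukin-22 receptor (0.62), Il1rap, the partner chain of the interleukin-1 receptor (0.35), and Tnfrsf1b, a tumour necrosis factor receptor (0.39), with edgeR adjusted p = 0.0302, 0.0338 and 0.0491. None of the receptors was called in the deletion comparison, where 9 of 11 tested were negative. Among receptors with a mean of at least 1 FPKM, Lifr, the receptor of Lif, had the lowest p there, at -0.48 (edgeR adjusted p = 0.349).

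None of 23 relay proteins and transcription factors was called in either comparison. Stat3 came nearest in the overexpression comparison, from 22.1 ± 2.23 to 26.4 ± 2.88 FPKM (SD, n = 4), at log2 0.33 (edgeR adjusted p = 0.0512). Cebpb, a C/EBP factor, stood at log2 0.56 there (edgeR adjusted p = 0.0767) and 0.53 in the deletion comparison (edgeR adjusted p = 0.305). Among those with a mean of at least 1 FPKM, Nfkb2 (0.85) and Relb (1.09) followed by p in the deletion comparison. Their edgeR adjusted p were 0.305 and 0.343. Of the 23 genes, 10 were positive and 13 negative there. In the deletion comparison all 4 LKO_NASH livers were above all WT_NASH livers for Cebpb, from 97.9 ± 14.2 to 157 ± 10.1 FPKM (SD, n = 4), while the share of genes called was 0%. How many of all genes were separated in this way is not given here.

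Of 13 genes listed as feedback inhibitors 3 were called in the overexpression comparison. Nfkbiz (0.42) and Nfkbia (0.33), which encode regulators of NF-kB, were higher. Cish, an inhibitor of STAT signalling, fell by 1.44 on the log2 scale from 17.0 ± 4.69 to 5.995 ± 1.89 FPKM (SD, n = 4). The edgeR adjusted p of Nfkbiz, Nfkbia and Cish were 0.00602, 0.0303 and 0.00933. Of 15 receptors and partners of the proteins, Scarb1, a receptor of high-density lipoprotein, was higher (0.30) and Hba-a1, the haemoglobin chain that haptoglobin binds, was lower (-0.94), with edgeR adjusted p = 0.02 and 0.0474. In the deletion comparison none of these 2 lists held a called gene. Among feedback inhibitors with a mean of at least 1 FPKM, Il1rn (0.95), Nfkbia (0.31) and Tsc22d3 (0.71) had the lowest p there. Their edgeR adjusted p were 0.305, 0.356 and 0.358. Of the 13 feedback inhibitors, 6 were positive and 7 negative.

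Marker lists of cell types are given beside these results. In the overexpression comparison 13 of 15 hepatocyte markers were positive, 2 were called higher and their median was 0.20, with sums of 50853 to 59667 FPKM with Ad_GFP and 53125 to 59830 with Ad_Chrebpa. All 7 tested of 8 cholangiocyte markers were negative there, 4 called lower, with sums of 119 to 287 and 94.5 to 141 FPKM and every marker listed. Of 6 B and plasma cell markers found 2 were called higher, with sums of 5.91 to 8.14 and 10.9 to 23.2 FPKM. The hepatocyte markers share 4 genes with the negative acute-phase list and 1 with the positive one.

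In the deletion comparison 12 of 15 hepatocyte markers were negative with a median of -0.18, and 19 of 20 macrophage markers were positive with a median of 0.67, none of either called. Hepatocyte sums were 62133 to 73424 FPKM in WT_NASH and 58868 to 69876 in LKO_NASH. Neutrophil markers summed to 4.15 to 8.18 FPKM in WT_NASH and 3.69 to 7.57 in LKO_NASH, where Camp was not listed, and to 25.4 to 59.1 and 28.3 to 38.2 with Ad_GFP and Ad_Chrebpa. Of the T and NK cell, stellate cell and sinusoidal endothelium markers none was called in either comparison, with medians of 0.56, 0.07 and 0.39 for the deletion and 0.15, -0.12 and -0.02 for the overexpression. The part of cell composition in the values of the 10 genes was not tested.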

How the data were processed

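Liver RNA was measured by RNA-seq in 16 mouse livers, 4 in each of 4 groups. Per the file headers, each table lists an expected count and an FPKM value per gene. Reads were aligned with HISAT2, per the submitters' processing notes, while the sources used here do not name the counter, genome build or annotation. The expected counts deposited by the authors were rounded to whole numbers (25.3% to 27.2% of them per liver were not whole), and 26 entries named by transcript were summed into their genes. The tables list no zeros (lowest FPKM 0.01), so a gene not listed in a liver was taken as 0 there. The FPKM deposited by the authors are levels per transcript length and served for values per liver.

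Each experiment was fitted on its own 8 livers with edgeR 4.0.16 (filterByExpr, TMM, quasi-likelihood F test) in R 4.3.3, with Benjamini-Hochberg adjustment over all genes tested and a threshold of 0.05. The control groups were compared in the same way, and the difference between experiments was fitted on all 16 livers. Alternatives used DESeq2 1.42.0, limma 3.58.1 on log2(FPKM + 1), on log2(FPKM + 0.1) and with voom, other scaling and filters, all livers in 1 fit, and livers left out. The edgeR steps were tested on simulated data. Livers of a group differed beyond sampling noise (chi-square per degree of freedom 17.2 to 240.3), so none was merged. The 10 genes and the gene lists were chosen with earlier results of these data known. The genes named are the 10, from each pathway list up to 3 called genes of lowest p or, where none was called, up to 3 of lowest p with a mean of at least 1 FPKM, and the 8 genes most like the mean of the 10. Genes picked outside this rule are said to be so.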

Additional observations from a re-analysis of the deposited data

Results flagged for a closer look

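In 5 of 40 groups of 4 livers, 1 liver lay far from the other 3 by Dixon's test on FPKM. Liver 17 of WT_NASH was that liver for Saa2 (1154 FPKM against 46.5 to 176 in the others), Orm1 (1365 FPKM against 352 to 436), Orm2 (216 FPKM against 16.3 to 43.5) and Itih4 (1671 FPKM against 848 to 974). Liver 15 of Ad_Chrebpa_HFLMCD was that liver for Saa2 (213 FPKM against 109 to 121). Chance gives such a liver in about 1 in 20 groups if values are normally distributed and groups are independent. These groups are not independent, because the genes were read in the same livers and most varied together. The 5 are therefore not set against that rate. Lbp differed between the experiments by a direct test of the difference (log2 -1.08, edgeR adjusted p = 0.0242), with a deletion difference of -0.25 and an overexpression difference of 0.80.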

How the results depend on the processing

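Of the 10 genes, 0 were called in the deletion comparison, 0 to 1 with 1 liver left out and 3 without livers 19 and 21. In the overexpression comparison 5 were called, 3 to 5 with 1 liver left out and 1 with all 16 livers in 1 fit. In the difference between experiments 1 was called, 0 to 7 with 1 liver left out, 4 with DESeq2, 6 without livers 19 and 21, and 5 without livers 17 and 21. In the control comparison 5 were called, and 5 to 7 with 1 liver left out. Shares of all genes called are not given for these refits, so their counts are not set beside a background. Leaving out livers 17 and 21 together was chosen after seeing the data. The cause of these shifts was not tested. Some signs turned. In the deletion comparison Saa3 was -0.36 without livers 19 and 21 and -0.49 without livers 17 and 21, where Orm1 was 0.083 and Orm2 0.0505. With 1 liver left out Saa3 ran from -0.46 to 0.72, Orm1 from -0.73 to 0.23 and Orm2 from -1.32 to 0.62. In the overexpression comparison Orm2 was -0.0677 on log2(FPKM + 1), with or without a filter, and -0.0681 on log2(FPKM + 0.1). With 1 liver left out it ran from -0.0672 to 0.18, and Steap4 from -0.10 to 0.0151. In the control comparison Orm1 was 0.0571 with voom, and on each FPKM scale Orm1 was 0.70, Hp 0.35 and Steap4 0.25. With 1 liver left out Orm1 ran from -0.42 to 0.52. The difference between experiments of Orm2 was 0.0356 without livers 17 and 21 and ran from -1.39 to 0.58. With Saa1 and Saa2 summed, the log2 fold change was -2.10 for the deletion (edgeR adjusted p = 0.360) and 1.101 for the overexpression (edgeR adjusted p = 0.0104). Of the values of single genes under alternatives, 188 of 199 kept direction and call in the deletion comparison, 156 of 179 in the overexpression comparison, 166 of 189 in the control comparison and 241 of 269 in the difference. No paired analysis was possible because the livers are numbered 9 to 24 with no number shared between groups.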
